A study of Mus musculus with 11 samples.

Results

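The genes described here are 8 of the 26921 genes in the deposited count tables, chosen by name as identity genes of arteries (Bmx, Gkn3, Sema3g, Gja4, Gja5 and Efnb2) or of veins (Ephb4 and Nr2f2), and their levels and joint detection were followed in endothelial cells (ECs) of the mouse cerebral cortex. All samples came from C57BL/6 mice, in 4 groups. The 4 juvenile libraries (postnatal day 10, P10), the 3 adult libraries (7–11 weeks) and the 2 aged libraries (18 months) were untreated. The 2 libraries with experimental autoimmune encephalomyelitis (EAE) came from female mice of 7–11 weeks at the peak of disease. These animals were given 150 µl of 0.75 mg/ml MOG35–55 peptide in Complete Freund's Adjuvant and 100 µl of 2 µg/ml pertussis toxin, and the adult group had neither adjuvant nor toxin, so the disease and these agents cannot be told apart. Tissue of 6 mice (juvenile, adult) or 3 mice (aged, EAE) was pooled, and nothing says whether libraries of 1 group came from separate pools, so p-values measure the spread between libraries, which may be technical.

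Arteries and veins differ in the genes their endothelium expresses before and after blood flow begins. Notch signalling maintains the arterial state and induces Efnb2, the gene of the membrane ligand ephrin-B2. Ephb4 encodes the receptor of that ligand and is enriched in veins, and Nr2f2 encodes COUP-TFII, a transcription factor that represses Notch signalling in veins. Gja4 and Gja5 encode connexin 37 and connexin 40, which form gap junctions between arterial ECs. Bmx encodes a non-receptor tyrosine kinase, Sema3g a secreted semaphorin, and Gkn3 a gastrokine known in brain as an arterial endothelial transcript. In brain the transition from artery to capillary to vein is gradual, so a level in all ECs mixes positions along the vessel tree.

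In GENCODE M21 (GRCm38) all 8 are protein-coding genes. Bmx lies at chrX:164192842-164258193, Gkn3 at chr6:87383256-87388935, Gja4 at chr4:127311421-127314039, Efnb2 at chr8:8617434-8661242 and Nr2f2 at chr7:70351944-70366735, all on the minus strand. Sema3g lies at chr14:31217860-31230352, Gja5 at chr3:96904693-97077416 and Ephb4 at chr5:137350109-137378669, on the plus strand. RefSeq (GRCm38.p6) had a promoter entry for 8 of 8. The 250 bases before the start used by RefSeq are printed for the 4 genes with the largest differences between conditions, 5′ to 3′ along the gene, with a searched motif in capitals where present. These are Gja4 (chr4:127314040-127314289, minus strand), Gja5 (chr3:97032152-97032401, plus strand, inside the GENCODE span and so before the start of a shorter transcript), Gkn3 (chr6:87388936-87389185, minus strand) and Bmx (chrX:164258194-164258443, minus strand).
Gja4: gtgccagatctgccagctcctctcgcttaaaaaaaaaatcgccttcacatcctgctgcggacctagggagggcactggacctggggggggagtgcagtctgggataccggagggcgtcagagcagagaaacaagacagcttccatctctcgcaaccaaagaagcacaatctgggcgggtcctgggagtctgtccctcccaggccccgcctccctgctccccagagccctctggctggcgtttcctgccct
Gja5: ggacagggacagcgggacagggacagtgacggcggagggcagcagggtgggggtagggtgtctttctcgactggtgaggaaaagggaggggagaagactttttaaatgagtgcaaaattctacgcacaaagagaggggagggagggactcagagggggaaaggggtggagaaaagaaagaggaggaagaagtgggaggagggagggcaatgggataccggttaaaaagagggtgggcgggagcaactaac
Gkn3: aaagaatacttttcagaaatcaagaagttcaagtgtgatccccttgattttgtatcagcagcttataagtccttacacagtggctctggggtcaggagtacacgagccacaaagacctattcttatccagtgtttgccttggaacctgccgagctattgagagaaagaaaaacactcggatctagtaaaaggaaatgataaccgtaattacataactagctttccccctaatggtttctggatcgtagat
Bmx: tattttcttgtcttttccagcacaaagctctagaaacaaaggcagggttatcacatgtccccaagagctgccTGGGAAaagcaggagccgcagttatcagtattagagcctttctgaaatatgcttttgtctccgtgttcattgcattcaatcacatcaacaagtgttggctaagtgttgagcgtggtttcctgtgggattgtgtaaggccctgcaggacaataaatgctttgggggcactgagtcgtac

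Both strands were searched for TGGGAA, the core bound by the Notch effector RBPJ, AACAAT, a SOX core, TATAAA and CACGTG. Of 32851 promoters of this length, 21.6%, 9.42%, 12.4% and 6.02% held them. Among the 8 genes, Bmx held TGGGAA at -178 to -173 and Efnb2 held the TATA box at -30 to -25, read on the printed strand as TTTATA. Gja4 and Gja5, which were both higher at P10 than in adult, shared none of the 4 motifs in this window. As each motif was held by at most 21.6% of all promoters, this does not bear on their levels. Their GC content was 61.2% and 56.4%, against 40.8% in Gkn3 and a median of 52.4% over all promoters.

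The libraries held 15755504 to 34326349 UMIs (unique molecular identifiers, each marking 1 captured transcript), and 50625 of 54646 barcodes passed the filters. Clusters carrying the EC markers Cldn5, Pecam1, Flt1, Cdh5 and 4 others, all 8 detected in each, gave 21050 EC-like cells (3088 juvenile, 5034 adult, 5756 aged, 7172 EAE). Of these, 0.252% were called doublets, and any pair of libraries shared at most 1.53% of barcodes. Juvenile, adult and EAE ECs each lay mostly in a different cluster (85.1%, 71.7% and 68.8% of their cells), the adult one also holding 80.2% of aged and 29.5% of EAE ECs, so the contrasts over all ECs compare cells of different clusters. Several libraries stood apart. Adult 1 held erythrocyte markers at 90884 CPM in ECs (CPM, the UMIs of a gene scaled to a common total for each library, 1000000 UMIs), against 2071 to 3072 in the other adult libraries, and choroid plexus markers at 49416 against 18594 to 19201. Juvenile 3 and 4 held the Y-linked transcripts Ddx3y (52.9 and 49.9 CPM) and Eif2s3y (45.9 and 48.9), with 0 UMIs in the other 9 libraries, whereas the methods give female mice. Differences whose calls changed without these libraries are given with and without them.

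The connexin genes Gja4 and Gja5 were the members that differed most between P10 and adult, and both were higher at P10. Gja4 was at 252, 183, 155 and 161 CPM in the summed ECs of the 4 juvenile libraries, 18.2, 36.0 and 32.7 in adult, 29.7 and 20.3 in aged and 11.0 and 15.9 in EAE libraries. No juvenile library overlapped with any other group, and both EAE libraries lay below all adult ones. Gja5 followed with 24.6, 21.3, 14.1 and 10.7 CPM at P10, 4.80, 6.46 and 5.76 in adult, 3.82 and 5.05 in aged and 2.44 and 1.84 in EAE ECs. Its groups were ordered in the same way, with adult and aged ranges overlapping. In these sums fewer cells of a vessel segment and less RNA per cell cannot be told apart.

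Bmx and Sema3g went the other way at P10. Bmx was at 29.4, 24.7, 17.0 and 19.3 CPM in juvenile, 34.6, 55.2 and 60.8 in adult, 56.2 and 46.8 in aged and 43.5 and 46.0 in EAE libraries. Sema3g was at 38.8, 30.2, 20.1 and 22.98 CPM in juvenile, 33.9, 50.5 and 51.6 in adult, 52.3 and 50.7 in aged and 50.2 and 48.4 in EAE libraries. Adult 1 had the lowest adult value of both genes, and for Sema3g it lay within the juvenile range. Aged and EAE ranges of both genes lay within or near the adult range.

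Gkn3 and Efnb2 had their lowest values in EAE. Gkn3 was at 275, 286, 210 and 185 CPM at P10, 168, 422 and 412 in adult, 393 and 311 in aged and 99.7 and 101 in EAE ECs. Here Adult 1 lay far below the other adult libraries and below the lowest juvenile one, and the EAE libraries were below every other library. Efnb2 was at 69.0, 51.7, 35.4 and 37.0 CPM at P10, 19.2, 40.9 and 40.7 in adult, 26.9 and 26.9 in aged and 15.7 and 17.2 in EAE ECs, again with the adult range set by Adult 1.

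Of the 8 genes, the venous gene Ephb4 varied least between libraries, while Nr2f2 varied about as much as Sema3g. Ephb4, the ephrin-B2 receptor, was at 89.4, 91.7, 70.7 and 71.4 CPM at P10, 60.4, 80.8 and 76.2 in adult, 83.9 and 80.5 in aged and 64.9 and 62.1 in EAE ECs, and each group overlapped the adult range. Nr2f2 was at 97.6, 95.1, 53.9 and 57.2 CPM at P10, 44.5, 56.7 and 48.4 in adult, 37.9 and 38.8 in aged and 47.6 and 51.5 in EAE ECs. Juvenile 1 and 2 held the high Nr2f2 values, and Juvenile 3 and 4 lay close to the adult range.

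**Figure D1:**
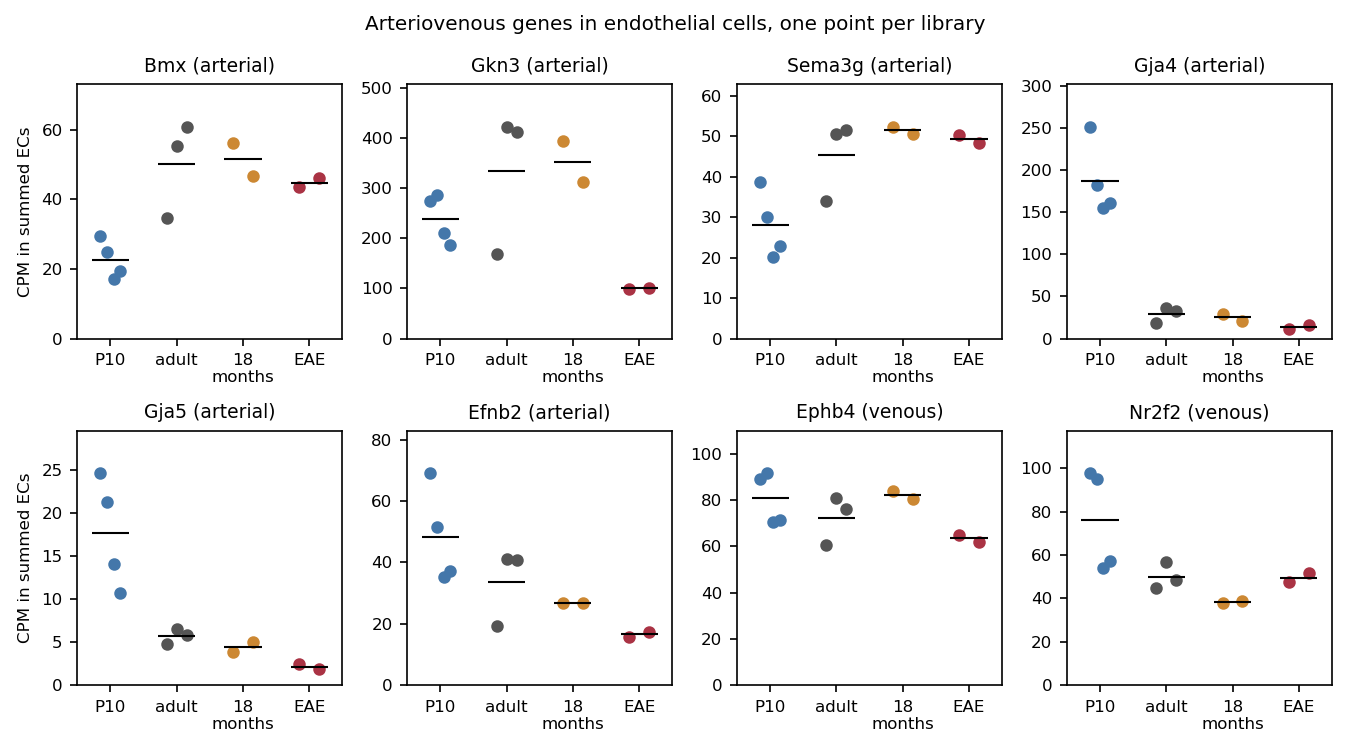
Level of each gene (CPM, vertical axis from 0) in the summed ECs of each library, by condition, with 1 point per library and a line at the group mean. Gja4 and Gja5 are highest at P10, Gkn3 is lowest in EAE (99.7 and 101 CPM), and 1 adult library lies apart from the other two for Gkn3, Bmx, Sema3g and Efnb2.

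These sums were compared with edgeR over all genes, after pairs of libraries that differed no more than many random divisions of their joined cells (26 and 43 of 100 differed as much), while other libraries of their group did differ, had been summed and counted as 1 sample (Juvenile 1 with 2 and Adult 2 with 3). This left 9 units. Without Adult 1 the adult group holds 1 unit, and without Juvenile 3 and 4 the juvenile group does. The same holds for aged or EAE ECs when 1 of their libraries is left out. A call or p-value of such a fit holds no spread between units of that group. A gene was called at an adjusted p under 0.05 (Benjamini-Hochberg). Between P10 and adult 41.9% of 13670 genes were called, and 4 of the 8 members were. The log2 difference, P10 minus adult, was 2.73 (SE 0.30, adjusted p = 0.000266) for Gja4 and 1.56 (SE 0.31, adjusted p = 0.00217) for Gja5. It was -1.11 (SE 0.22, adjusted p = 0.00352) for Bmx and -0.69 (SE 0.21, adjusted p = 0.0249) for Sema3g. Nr2f2 (0.55, adjusted p = 0.0759), Efnb2 (0.54, 0.195), Ephb4 (0.19, 0.222) and Gkn3 (-0.33, 0.474) were not called. The share of members called was close to that of all genes, and the calls split into 2 arterial genes higher and 2 lower. This split changed with ECs chosen by marker UMIs, where 4 members were called higher, Gja4 (3.27), Gja5 (2.23), Efnb2 (1.08) and Ephb4 (0.86), and 0 lower, with Bmx at -0.45 (adjusted p = 0.299) and Sema3g at -0.04 (0.930). That choice did not count choroid plexus or erythrocyte markers against a cell. It took Adult 1 from 886 to 1620 cells and Adult 3 from 2131 to 2770, but Juvenile 1 from 542 to 568. What the added cells were was not tested. With 8 units Sema3g was not called (-0.61, adjusted p = 0.0624) and Nr2f2 was (0.67, 0.0442). Without cycling ECs, which left 371 of 542 cells in Juvenile 1 and 363 of 504 in Juvenile 2 but 2109 of 2131 in Adult 3, Sema3g was not called (-0.47, adjusted p = 0.0875), and Gja4, Gja5 (1.60) and Bmx (-0.91) were.

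Without Juvenile 3 and 4, which leaves 1 juvenile unit, the connexin differences were 2.98 for Gja4 and 2.05 for Gja5. Bmx then had -0.80 and Sema3g -0.32, neither of them called, and Nr2f2 had 0.99. Without Adult 1, which leaves 1 adult unit, Gkn3 had -0.81 at P10.

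Between aged and adult 4.7% of 13670 genes were called by edgeR and 0 of the 8 members were, which is near that share for so few genes. DESeq2 called 0 members as well. An unadjusted p under 0.05 was found for 0 members, beside 3152 of the 13670 genes. The estimates ran from -0.38 (SE 0.24, adjusted p = 0.383) for Nr2f2 to 0.23 (SE 0.37, adjusted p = 0.762) for Gkn3.

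In EAE 26.8% of genes were called and 2 of the 8 members, both arterial and both lower. Gkn3 differed by -1.42 (SE 0.38, adjusted p = 0.0371) and Gja5 by -1.25 (SE 0.37, adjusted p = 0.0308). Gja4 (-0.91, adjusted p = 0.0789) and Efnb2 (-0.81, 0.119) had the same sign without a call. Sema3g (0.31, adjusted p = 0.317), Nr2f2 (0.15, 0.690), Bmx (0.04, 0.925) and Ephb4 (-0.02, 0.939) were not called. Without Adult 1, which leaves 1 adult unit, Gkn3 had -1.88, Gja4 -1.18 and Efnb2 -1.14. Without Juvenile 3 and 4, which add only to the estimate of the spread here, Gkn3 had -1.39 and was not called (adjusted p = 0.0530). With ECs chosen by marker UMIs neither Gkn3 (-0.92, adjusted p = 0.161) nor Gja5 (-0.68, 0.216) was called. Neither was called without either EAE library, which leaves 1 EAE unit. Of 21 alternatives 10 moved the count of 2 by more than 1.5 times. The 3 contrasts share the adult libraries.

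**Figure D2:**
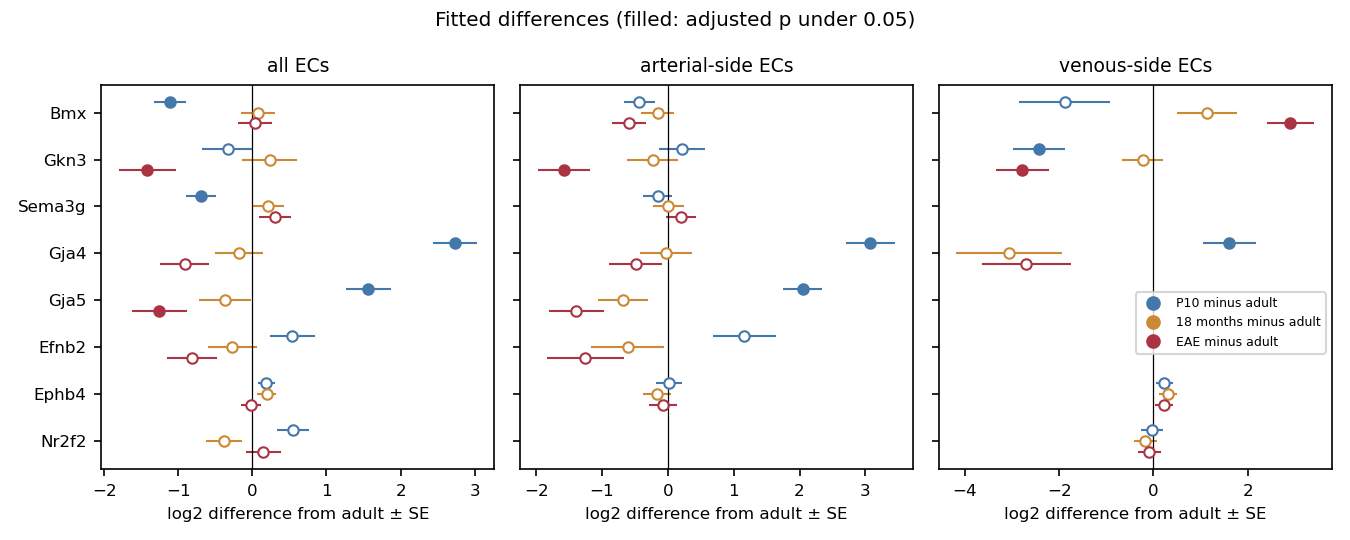
Log2 difference from adult with its standard error (horizontal axis) for each gene in all ECs, arterial-side ECs and venous-side ECs, from the edgeR fit, with filled points for an adjusted p under 0.05. Gja4 and Gja5 stand to the right at P10 (2.73 and 1.56 in all ECs), Gkn3 to the left in EAE, and Bmx to the right on the venous side in EAE (2.91), while genes without a point were too low to be tested.

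Other cell types held some of these genes as well. Gja4 was higher in mural cells (pericytes and smooth muscle cells) than in ECs, with 961 to 1134 CPM at P10, 299 to 585 in adult, 343 to 377 in aged and 406 to 439 in EAE libraries. Nr2f2 was at a median of 428 CPM over libraries in mural cells (312 to 596) 195 in fibroblast-like, 81.2 in choroid plexus and 56.7 in ependymal cells, against 51.5 in ECs. Ephb4 had its highest level outside ECs in fibroblast-like cells (median 45.5 CPM against 76.2 in ECs). Bmx was found in neutrophils, at 22.9 and 22.6 CPM in aged and 63.0 and 76.3 CPM in EAE libraries. In these EAE libraries neutrophils were above ECs (43.5 and 46.0 CPM). The EC median over libraries was higher than that of any other named type for Gkn3, Sema3g, Gja5, Efnb2 and Ephb4. For Bmx it was too, but barely, with 43.5 CPM over 11 libraries against 42.9 in neutrophils, which had enough cells in only 4 libraries.

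Shares of cells with a UMI were compared after each cell had been thinned to 1500 UMIs, since juvenile ECs were deeper (median 6004 UMIs among the cells kept) than adult (3250), aged (2496) and EAE ECs (2583). Thinning left out 1.33% of juvenile, 5.86% of adult, 13.4% of aged and 13.1% of EAE ECs. Gja4 was then found in 15.2% of juvenile, 3.38% of adult, 2.05% of aged and 1.56% of EAE ECs. Microglia, which should lack it, had 1.25%, 0.151%, 0.275% and 0.155%, at medians of 2985, 3493, 3042.5 and 3420 UMIs. Gja5 was found in 2.13%, 0.739%, 0.361% and 0.209% of ECs in the same order, against 0.0798% of juvenile microglia and 0 cells in the other groups. Gkn3 was found in 6.99%, 9.54%, 11.5% and 4.76% of ECs, against 1.30%, 2.27%, 1.74% and 0.466% of microglia, the highest such background of the 8 genes in adult, aged and P10 cells. Bmx was found in 3.18%, 5.42%, 4.96% and 5.15% of ECs and in at most 0.641% of microglia. Nr2f2 was found in 7.88%, 6.04%, 4.29% and 5.17% of ECs, against 0.745%, 1.96%, 0.916% and 0.504% of microglia. Ephb4 was found in 10.9%, 10.5%, 11.9% and 8.12% of ECs, against 0.239%, 0.906%, 1.47% and 0.621% of microglia.

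To compare levels along the vessel axis, ECs of each library were ordered by a score of 8 other arterial genes (Mgp, Fbln5, Hey1 and others) minus 7 other venous genes (Slc38a5, Tfrc, Vwf and others), none of them a member. The 10% of cells at each end are called arterial-side and venous-side, and 10% around the median the middle. The ends hold equal shares of each library and not equal scores, since the lowest arterial-side score was 1.15 to 1.58 in juvenile, 0.826 to 1.04 in adult, 0.869 and 0.872 in aged and 0.677 and 0.697 in EAE libraries, on a scale set within each library. A difference at an end can thus include a difference in which cells fall there. These are ranges of a score and not cell types. In Juvenile 1, 22 ECs lay within 2 percentage points of the arterial-side cut, counting both of its sides, beside 54 cells in that range. The 6 arterial genes were higher on the arterial side in 11 of 11 libraries. Nr2f2 was higher on the venous side in 11 of 11 libraries, by 11.1 to 70.2 times. Ephb4 was too, but only by 1.02 to 1.95 times, so its gradient was shallow next to that of Nr2f2.

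**Figure D3:**
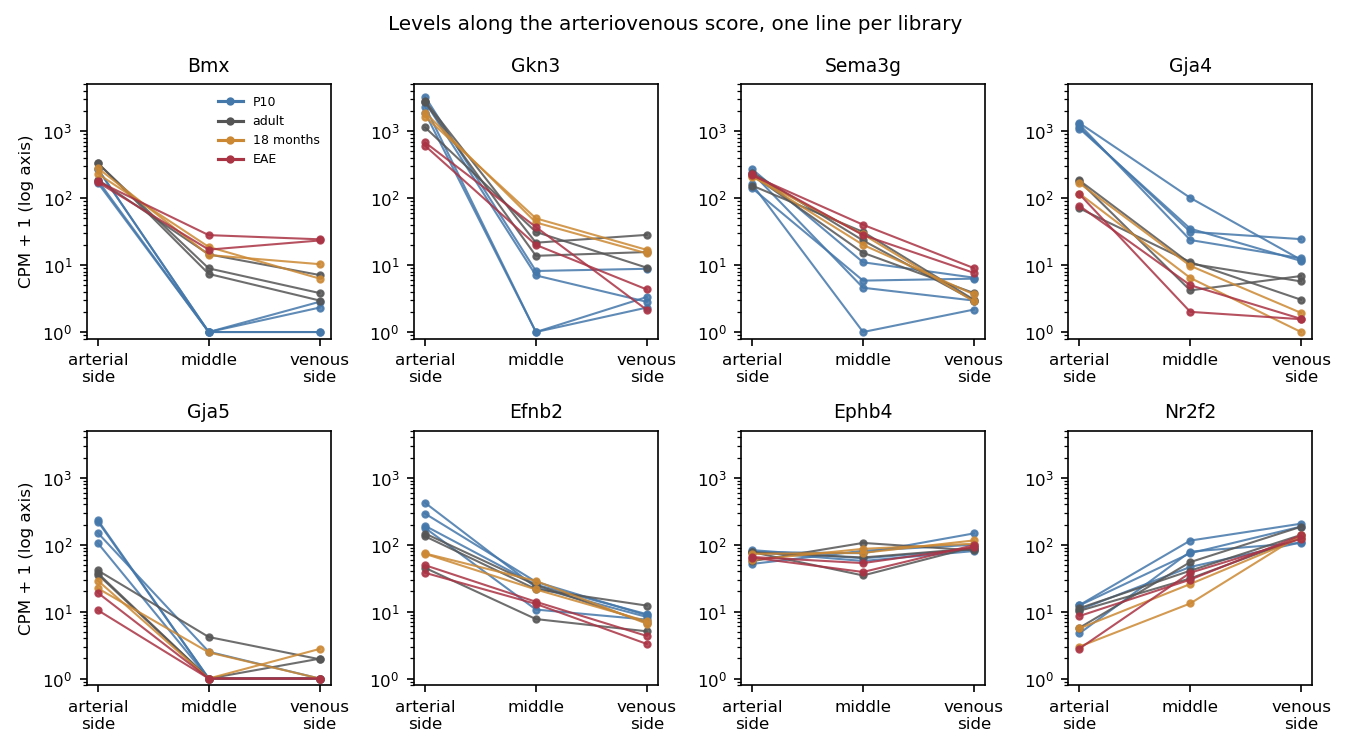
Level of each gene (CPM + 1, log axis) in arterial-side, middle and venous-side ECs, with 1 line per library coloured by condition. The arterial genes are higher at the left end than at the right in all libraries, Nr2f2 is lower, Ephb4 is nearly flat, and the EAE libraries keep Bmx at 22.3 and 23.3 CPM on the venous side.

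On the arterial side the P10 connexin difference stood out again. Gja4 was at 1326, 1152, 1262 and 1096 CPM in juvenile and 69.5, 183 and 179 in adult libraries, and these juvenile values were as high as those of juvenile mural cells. Gja5 was at 221, 230, 148 and 104 CPM at P10 and 34.8, 40.2 and 36.4 in adult. Of 9340 genes 13.6% were called between P10 and adult, and 2 of the 7 members tested: Gja4 (log2 difference 3.08, SE 0.38, adjusted p = 0.00121) and Gja5 (2.05, SE 0.29, adjusted p = 0.000311). Without Juvenile 3 and 4, which leaves 1 juvenile unit, Gja4 had 3.09 and was not called, and Gja5 had 2.48. Bmx (-0.44, adjusted p = 0.264) and Sema3g (-0.16, 0.710), which were lower at P10 in all ECs, were not called at this end of the score. Without Adult 1, Bmx had -0.75.

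In EAE, 9.36% of genes were called on the arterial side and 1 of the 7 members. Gkn3 was at 680 and 606 CPM in EAE and 1142, 2833 and 2706 in adult libraries (log2 difference -1.58, SE 0.40, adjusted p = 0.0478). This call was lost in 10 of 16 alternatives, with adjusted p-values up to 0.233, while the difference stayed negative in each. Without Adult 1, which leaves 1 adult unit, Gkn3 had -2.05, Bmx -0.86, Gja4 -0.87 and Efnb2 -1.65. Gja5 (18.0 and 9.48 CPM in EAE) had -1.39 with an adjusted p of 0.0531, and without Juvenile 3 and 4 it was called (-1.39, adjusted p = 0.00985) while Gkn3 was not (-1.58, 0.0865). Between aged and adult 0.557% of genes were called and 0 members, with 0 members under an unadjusted p of 0.05, beside 965 of 9340 genes.

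On the venous side 28.2% of 9493 genes were called between P10 and adult, 2.53% between aged and adult (0 members by edgeR) and 17% between EAE and adult. In the aged contrast 1458 of the 9493 genes had an unadjusted p under 0.05, among them 1 member, Gja4. Of the members, 5 were tested here. Nr2f2 was at 205, 186, 107 and 106 CPM at P10, 126, 185 and 139 in adult, 126 and 140 in aged and 121 and 137 in EAE venous-side cells, and its estimates were -0.03 (adjusted p = 0.945), -0.17 (0.801) and -0.08 (0.866). Ephb4 had 0.23, 0.31 and 0.23, none called, and without Juvenile 3 and 4 it had 0.56 at P10. Gja4 was called higher at P10 (1.61, adjusted p = 0.0340). This call was lost in 10 of the 15 alternatives that tested it, among them those without Juvenile 3 and 4 and without Adult 1. Gkn3 was called lower at P10 (-2.43, adjusted p = 0.00183), though not without Juvenile 3 and 4, and in EAE (-2.78, 0.00101). Gja4 passed the filter only through the juvenile group, where it is high. Gkn3 passed it only through adult and aged libraries (up to 27.3 and 15.9 CPM), where it is high. Juvenile and EAE libraries held at most 7.81 and 3.33 CPM of Gkn3. Both genes were there at levels found in microglia, which should lack them. Venous-side Gkn3 was at 8.15, 27.3 and 14.7 CPM in adult libraries and 10.5, 27.1 and 64.8 CPM in microglia of the same libraries, and 1.15 and 3.33 against 6.39 and 3.22 in EAE. Juvenile venous-side Gja4 was at 11.0, 23.4, 11.7 and 10.6 CPM against 22.0, 14.9, 11.9 and 5.24 in microglia. These venous-side levels are therefore not read as expression, and what the called differences rest on was not tested. Without Adult 1, Gja4 had -2.92 in EAE.

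Bmx, an arterial kinase gene, had a higher venous-side level in EAE than in any other library, and so did Sema3g at lower counts. Bmx was at 22.3 and 23.3 CPM in EAE, 6.12, 2.83 and 1.96 in adult, 9.33 and 5.30 in aged and 1.83, 0, 0 and 1.32 CPM in juvenile venous-side cells. In the middle range it was at 16.0 and 27.1 CPM in EAE, 13.5, 7.93 and 6.38 in adult, 13.1 and 17.7 in aged and 0 in juvenile libraries, so EAE 2 held as much Bmx mid-score as at the venous end. On the venous side the log2 difference between EAE and adult was 2.91 (SE 0.50, adjusted p = 0.000191) and was called in 16 of 16 alternatives. Adult libraries held 3, 3 and 2 Bmx UMIs there and EAE libraries 39 and 42. Bmx thus passed the filter on low counts only through the EAE group, where it is high. No venous-side fit without that filter was run, so the p-value and the 16 alternatives share this limit. Summed over libraries there were 81 Bmx UMIs in EAE and 8 in adult venous-side cells, a ratio of CPM of 7.34 (95% interval of counting error 3.56 to 17.6). Microglia had 2.99 and 3.79 CPM of Bmx in the EAE libraries and 0, 6.03 and 6.23 in adult ones, so the adult venous-side level was near background and the EAE level above it.

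On the arterial side Bmx did not follow this pattern, with 172 and 177 CPM in EAE and 188, 330 and 334 in adult libraries (-0.58, adjusted p = 0.197). Across all genes the change of the arterial-side to venous-side difference was called for 7.39% of 10154 genes at P10, 0.384% in aged and 2.97% in EAE. In EAE this held for 1 of 8 members, Bmx, by -3.68 (SE 0.42, adjusted p = 1.13e-08). At P10 it held for Gkn3 (2.45, SE 0.41, adjusted p = 1.80e-05), whose venous-side level was near or below that of microglia, and in aged ECs for 0 members. In the aged contrast of this edgeR fit, Bmx (-1.49, adjusted p = 0.504) and Gja4 (2.82, adjusted p = 0.387) were the 2 members with an unadjusted p under 0.05. Over all genes this held for 694 of 10154. The Gja4 value rests on 1 aged and 12 adult venous-side UMIs, and that of Bmx on 16 and 8. In EAE Bmx was 7.72 and 7.61 times higher on the arterial than on the venous side, and 30.1 and 43.4 times in aged libraries, while the adult libraries held only 3, 3 and 2 venous-side UMIs of Bmx.

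Cells with a Bmx UMI made up 65 of 717 EAE venous-side cells (9.07%, without thinning), against 7 of 504 adult (1.39%), 15 of 576 aged (2.60%) and 2 of 308 juvenile ones (0.649%). Of the 65 cells, 48 (73.8%) had an Nr2f2 UMI, against 35.0% of all EAE venous-side cells, 33 had an Ephb4 UMI, 1 had a Gkn3 UMI, and 0 were called doublets. Their median depth was 9483 UMIs against 3895, so these shares are not at equal depth. For each Bmx UMI there were 0.0988 Gkn3 UMIs on the venous side of EAE ECs and 3.69 on the arterial side, and 0.321 and 1.27 Sema3g UMIs. Sema3g was at 8.02 and 6.66 CPM in EAE and 1.96 to 2.83 in adult venous-side cells, too low to be tested. Summed over libraries it had 26 UMIs in EAE and 6 in adult, a ratio of CPM of 3.14 (95% interval of counting error 1.27 to 9.34). Among thinned microglia, too, Sema3g was found more often in EAE (0.621%, 16 of 2577 cells) than in adult (0.151%, 1 of 662). Over all libraries microglia held up to 7.51 CPM of Sema3g. The part of background in its venous-side level was not tested.

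**Figure D4:**
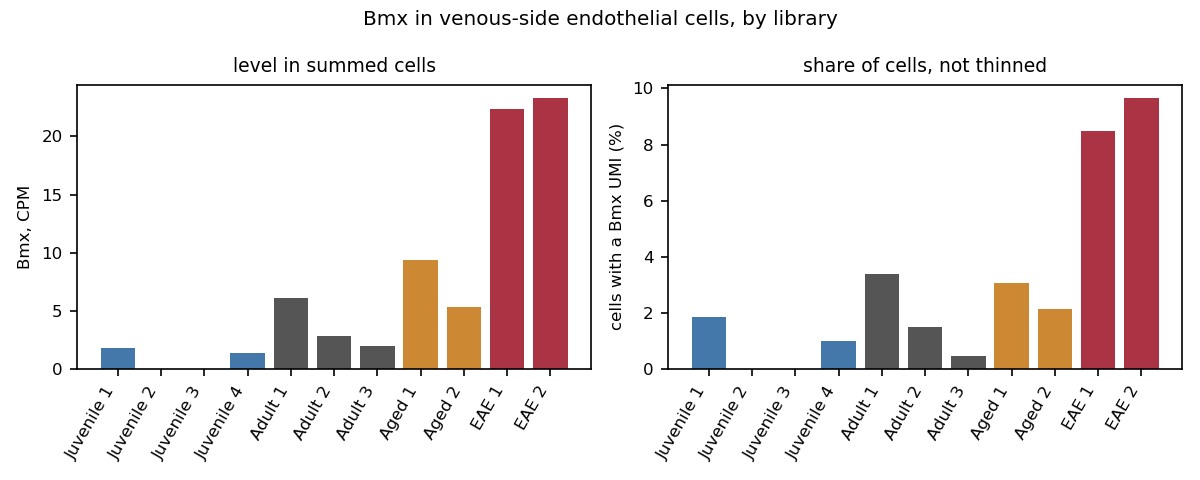
Bmx in venous-side ECs of each library, as the level in the summed cells (left, CPM) and the percentage of cells with at least 1 Bmx UMI at full depth (right), with both axes from 0 and bars coloured by condition. Both EAE libraries (22.3 and 23.3 CPM) are above all other libraries, and Juvenile 2 and 3 are at 0.

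Markers of other cells also differed between the groups. The 6 neutrophil markers summed to 188 and 210 CPM in EAE ECs, 242 and 283 in aged, 30.1 to 41.5 in adult and 1.01 to 8.84 in juvenile ECs, with 6 of 6 detected in the EAE and aged libraries. Monocyte markers summed to 1108 CPM in both EAE libraries, 504 to 626 in adult, 543 to 553 in aged and 939 to 999.6 in juvenile ECs, and T and NK cell markers to 27.1 and 30.4, 4.29 to 10.4, 11.2 to 14.5 and 0 to 0.856. Juvenile libraries held 12 to 33 monocytes and EAE libraries 960 and 886, so the monocyte sum in ECs did not follow the number of monocytes. Of the EAE venous-side cells with a Bmx UMI, 83.9% and 82.4% had a neutrophil marker UMI, against 52.3% and 59.1% of all venous-side cells, and the former were deeper. Neutrophils carried 0.300 and 0.330 Bmx UMIs per 1000 neutrophil marker UMIs in the EAE libraries, whereas venous-side ECs carried 134 and 127. In EAE venous-side cells without any neutrophil marker UMI, Bmx was at 11.8 and 18.0 CPM (7 and 10 UMIs in 5 and 6 cells), against 7.69, 2.46 and 2.36 in adult ones. The part of neutrophils, monocytes and T and NK cells in the result was not tested. The cells at this end of the score also differed in other ways. In EAE 84.5% of venous-side cells lay in another cluster than most adult ones (71.6%), and the arterial genes of the score itself summed to 1738 and 1878 CPM there against 159 to 426 in adult. Among them 8430408G22Rik was at 1395 and 1416 CPM in all EAE ECs and 179 to 301 in adult ones. Without that gene in the score, the venous-side Bmx difference was 3.05 (adjusted p = 0.000112). The part of the cluster difference in the result was not tested.

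Joint detection of arterial and venous genes was measured as the share of ECs, thinned to 1500 UMIs, with at least 1 UMI of any arterial and any venous member. This share was 1.57% to 3.99% at P10, 1.10% to 3.02% in adult, 2.21% and 2.44% in aged and 1.58% and 1.60% in EAE libraries. Dividing it by the product of the separate shares gives a co-detection ratio, which is 1 when the 2 groups of genes occur independently. The ratio was 0.642, 0.697, 0.600 and 0.790 at P10, 0.590, 0.823 and 0.707 in adult, 0.724 and 0.833 in aged and 0.790 and 0.808 in EAE libraries. It was below 1 in 11 of 11 libraries, and the conditions overlapped.

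The exact permutation test over units could not reach 0.05 for this ratio, and no other test was run. The mean log2 ratio, minus adult, differed by 0.0177 at P10 (exact permutation p = 0.8, smallest possible 0.1), 0.206 in aged (exact p = 0.667) and 0.248 in EAE (exact p = 0.333), where the smallest possible p for 2 against 2 units was 0.333. These tests are two-sided. Both EAE units lay above both adult units, and the P10 and aged units overlapped with adult. The values depend on thinning. At full depth the ratio was 0.888 to 0.959 at P10, 0.978 to 1.06 in adult, 1.03 in both aged and 1.12 and 1.16 in EAE libraries.

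The pairs of genes behind the ratio fell into classes. Arterial genes were found together more often than the product of their shares, in 15 of 15 pairs in juvenile, adult and aged ECs (median ratios 4.92, 3.97 and 4.72) and 14 of 15 in EAE (3.52). The exception was Gja5 with Efnb2, with 0 cells in EAE where the product gave 0.332. Bmx and Gkn3 were found together in 70 juvenile, 134 adult, 136 aged and 66 EAE ECs, with ratios of 9.16, 5.34, 4.78 and 4.31. The venous pair was only slightly above the product, with ratios of 1.42, 1.09, 1.14 and 1.15.

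Pairs of an arterial and a venous gene were below the product in 11 of 12 at P10, 12 of 12 in adult, 12 of 12 in aged and 9 of 12 in EAE ECs. In each condition the lowest ratio was that of a pair with Nr2f2, while all pairs with Ephb4 were also below the product in adult and aged ECs. Gja4 and Nr2f2 were found together in 5 juvenile ECs where the product gave 38.0 (ratio 0.131), in 4 against 9.75 in adult, in 0 against 4.42 in aged and in 0 against 5.02 in EAE ECs. A count of 0 allows joint detection at this depth in up to 0.0602% of aged and 0.0481% of EAE ECs, for counting error only, and does not limit the cells that express both genes. Bmx and Nr2f2 had ratios of 0.351, 0.257, 0.0941 and 0.241. Ephb4 was closer to independence, with ratios of 0.542 to 1.01 for its 6 arterial partners at P10, 0.546 to 0.976 in adult, 0.468 to 0.890 in aged and 0.884 to 1.87 in EAE. The 3 EAE pairs above 1 were Ephb4 with Gja4 (9 cells against 7.82), Gja5 (2 against 1.07) and Efnb2 (14 against 13.03), so they rest on few cells.

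**Figure D5:**
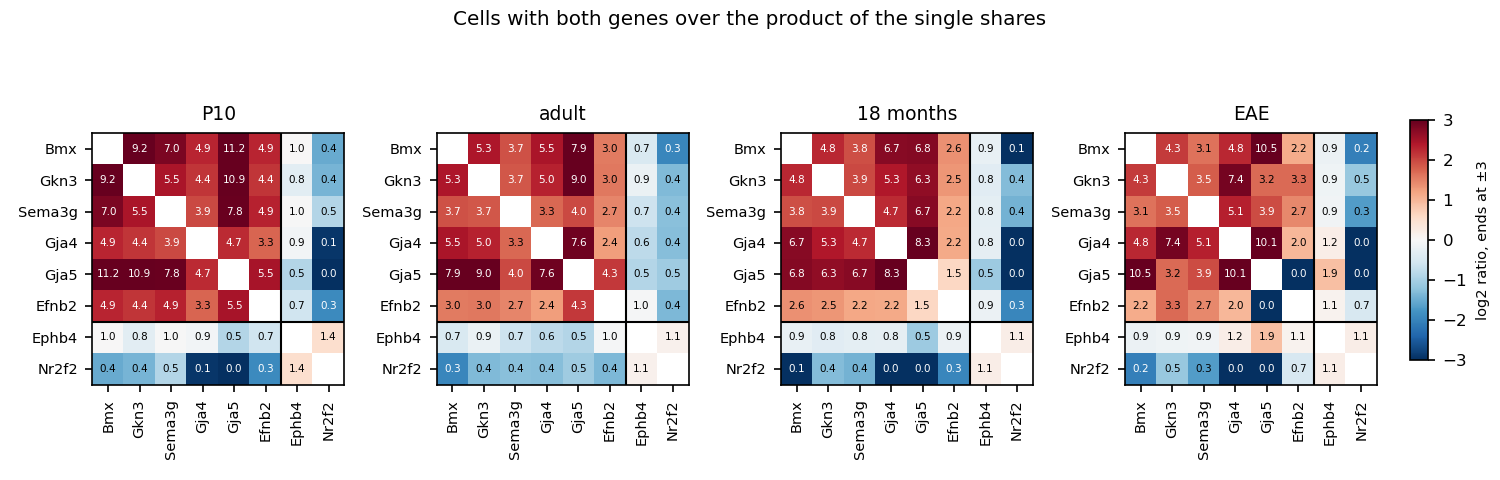
Ratio of the ECs with both genes to the product of the single shares for the 28 pairs of genes in each condition, at 1500 UMIs per cell, printed in each square and coloured by its log2 value. Arterial pairs are red in nearly all squares, the Nr2f2 column is blue against all 6 arterial genes, and the Ephb4 column is pale.

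ECs with both an arterial and a venous UMI numbered 77 at P10, 113 in adult, 116 in aged and 99 in EAE samples, and 0 of them were called doublets. Most were positive through Ephb4 (63, 89, 103 and 81 cells). Nr2f2 was present in 16, 25, 16 and 21 of them, or 0.525%, 0.528%, 0.321% and 0.337% of all thinned ECs. Of these double-positive cells 37.7%, 24.8%, 30.2% and 25.3% were on the arterial side of the score, and 5.19%, 5.31%, 2.59% and 3.03% on the venous side. Their median depth before thinning was 5950, 3439, 2614 and 3208 UMIs, against 6004, 3250, 2496 and 2583 in all thinned ECs.

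Beyond the 8 genes, 4 lists of related genes were read from the same fit, some of whose genes also entered the score. Of 27 other arterial genes tested, 4 were called higher and 8 lower at P10, 2 and 0 in aged, and 4 and 6 in EAE, where 41.9%, 4.7% and 26.8% of all genes were called. Their median log2 differences were -0.13, -0.08 and -0.23 beside -0.05, -0.004 and 0.004 over all genes. At P10 Cytl1 (-5.03), a cytokine-like gene, and Alpl (-3.22), tissue-nonspecific alkaline phosphatase, were lower and the chemokine receptor Cxcr4 (3.79) was higher. In aged ECs Alpl (1.10) and the arterial transcription factor Sox17 (0.50) were higher. In EAE the tetraspanin gene Tspan2 (-2.14), the growth factor Vegfc (-2.13) and the co-receptor Nrp1 (-1.41) were lower.

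Of 17 other venous genes tested, 4 were called higher and 6 lower at P10, 3 and 2 in aged, and 6 and 6 in EAE, beside the same shares of all genes (41.9%, 4.7% and 26.8%), with medians of 0.17, 0.15 and 0.36. This list also held Lcn2, Lrg1 and Icam1, which the paper reports as higher in inflammatory ECs of EAE. Its counts and medians thus do not describe venous identity alone. The apelin receptor gene Aplnr was at 410 to 444 CPM at P10, 11.9 to 26.5 in adult, 1.48 to 1.53 in aged and 0.180 to 0.277 in EAE ECs (log2 differences 4.47, -3.75 and -6.24). Lrg1, a secreted glycoprotein gene, went the other way with 0.827 to 5.03 CPM at P10, 12.7 to 19.8 in adult, 46.7 to 48.5 in aged and 483 to 517 in EAE (-2.55, 1.58 and 5.14). Lcn2, an acute-phase gene, was at 1096 and 1140.5 CPM in EAE and 2.02 to 12.8 in adult (7.29), and 43.3 and 44.3 in aged ECs (2.45).

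Of 20 other ephrin and Eph receptor genes 12 were tested. At P10, 3 were called higher and 3 lower, among them Efna4 (2.07), Efnb1 (-1.13) and Efna3 (-1.10). In EAE 1 was higher, Epha2 (0.60), and 2 were lower, Epha3 (-1.63) and Efnb3 (-1.51), and in aged ECs 0 were called by edgeR, beside 41.9%, 26.8% and 4.7% of all genes at P10, in EAE and in aged ECs. Only 3 of 17 other connexin genes were tested, of which 2 were called at P10, 1 in aged and 1 in EAE ECs. Gja1, connexin 43, was higher at P10 (152.6 to 167 CPM against 77.1 to 90.4 in adult, log2 difference 0.98) and lower in aged ECs (42.8 and 46.3 CPM, -0.94). Gjc1, connexin 45, was lower at P10 (-0.96) and higher in EAE (146 and 147 CPM against 74.7 to 91.5, 0.91), so the connexin genes did not move as 1 group.

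The genes most like each member were taken by the Pearson correlation of log2(CPM + 5) over 27 points (9 units in 3 ranges), among 6220 genes, as a description of points that share libraries. They were Ssfa2 (0.960) and Kazald1 (0.960) for Bmx, Fam198b (0.971) and Amd1 (0.966) for Gkn3, and Fam198b (0.962) and Bmx itself (0.950) for Sema3g. For the connexins they were Col18a1 (0.972) and Egfl8 (0.967) beside Gja4 and Dkk2 (0.980) and Syt15 (0.973) beside Gja5. Dkk2 (0.936) also came first for Efnb2, ahead of Ccnd2 (0.933). Nr2f2 was most like Nrp2 (0.938), the neuropilin of veins, and Klhl5 (0.925). Ephb4 had no close match, with Stox2 at 0.784 and Trip12 at 0.674.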

How the data were processed

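Single-cell 3′ RNA-seq (10x Chromium v2) was made from cortex digested with papain and Liberase and depleted of myelin and dead cells. The authors deposited a table for each library with the count of UMIs for every gene in every barcode. Their processing notes name bcl2fastq 2.19.1.403, UMI-tools 0.5.3, STAR 2.5.3a, featureCounts 1.6.1 and mm10. Cells with 500 to 6000 genes and under 25% mitochondrial UMIs were kept. In scanpy 1.11.5 (Python 3.11.15), counts were log-normalized, 1977 variable genes and 12 principal components were used, and Leiden clusters (leidenalg 0.10.2, resolution 1, 27 clusters, 2 left unnamed) were named from marker lists, with the 8 members, the genes of the arteriovenous score and cell-cycle genes kept out of the clustering. Doublets were called with Scrublet and kept, and leaving them out was an alternative.

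UMIs of ECs were summed per unit (at least 10 cells) and tested with edgeR 4.0.16 in R 4.3.3 (TMM, filterByExpr, robust quasi-likelihood). Arterial-side and venous-side sums were fitted separately, and their difference by an interaction term with the unit as a block. CPM values use the total of the summed cells. Alternatives were DESeq2 1.42.0, RLE normalization, no filter, other units, other ranges, ECs chosen by at least 5 EC marker UMIs, cells without doublets or cycling cells, a replicate block, other depths and each library left out. In addition, 2 more, the score without 8430408G22Rik and the fits without Juvenile 3 and 4, were chosen after seeing the data. The edgeR comparison of EAE with adult and the co-detection ratio were tested on simulated data.

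Named were all 8 members, for each related list at most 3 called genes with the largest log2 difference per contrast, and the 2 genes most like each member. Of these, 1 gene is not reported here. The members and lists were chosen with earlier results of these data known. The 2 aged and the 2 EAE libraries stayed separate, since each group had no other library to compare them with, but 7 and 12 of 100 random divisions of their joined cells differed as much as they did, so p-values may be too small. Depth limits precision through UMI counts, and intervals cover counting error only.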

Additional observations from a re-analysis of the deposited data

Results flagged for a closer look

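Among the 4 juvenile libraries, 1 library lay apart from the other 3 by Dixon's test in 5 of 32 groups of values, where chance gives about 1 in 20 groups. Arterial-side Ephb4 was lowest in Juvenile 1, at 50.6 CPM. Gja4 in the middle range was highest in Juvenile 1, at 100.2 CPM, and on the venous side it was highest in Juvenile 2, at 23.4 CPM. Gkn3 on the venous side was highest in Juvenile 2, at 7.81 CPM, or 4 UMIs. Gja5 in the middle range was highest in Juvenile 3, at 1.52 CPM, which was 1 UMI beside 0 in the other 3 libraries, so that Dixon's ratio is at its maximum by construction.

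The difference between arterial-side and venous-side ECs itself differed between conditions for 2 genes by the interaction term of edgeR. For Gkn3 it was larger by 2.45 on the log2 scale at P10 than in adult, with venous-side counts of 8 and 48 UMIs. Its arterial-side CPM was nearly equal (ratio of P10 over adult 1.01). Its venous-side levels were near or below those of microglia and are not read as expression, so this is not read as a change along the vessel axis. For Bmx it changed by -3.68 in EAE, with venous-side counts of 81 UMIs against 8.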

How the results depend on the processing

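Counts of members called at P10 and in aged ECs kept within 1.5 times their value in 21 of 21 alternatives (3 to 5, and 0), but the P10 calls changed in kind, from 2 higher and 2 lower to 4 and 0 with ECs by marker UMIs, 3 and 1 with 8 units and 3 and 0 without Juvenile 3 and 4. The interaction in EAE kept 1 call in 15 of 15. In EAE the 2 calls over all ECs became 1 with 8 units, 1 without a low count filter, 1 without Juvenile 3 and 4, 0 with ECs by marker UMIs, and 0 to 4 with a library left out (0 without either EAE library, 4 without Adult 1). On the arterial side the P10 count fell to 1 without Juvenile 3 and 4. The EAE count of 1 became 0 with 20% ranges, 3 with 5% ranges, 2 with 11 separate libraries, 0 without 8430408G22Rik in the score and 0 to 4 with a library left out. On the venous side the P10 count of 2 became 0 with 5% ranges, 1 without 8430408G22Rik, 1 without Juvenile 3 and 4 and 1 to 2 with a library left out, and the EAE count of 2 became 1 with 5% ranges. The P10 interaction count of 1 became 2 with 20% ranges and 2 without 8430408G22Rik. The cause was not tested. Fits without Adult 1, without Juvenile 3 and 4 (at P10) or without 1 EAE or aged library leave 1 unit in a group. Their calls hold no spread within that group.

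The P10 co-detection difference (0.0177) turned to -0.125 without thinning, -0.199 with ECs by marker UMIs, -0.0460 with 11 separate libraries, -0.0109 without Juvenile 3 and 4, and ranged from -0.172 to 0.110 with a library left out. The aged one (0.206) became -0.112 at 1000 UMIs and -0.218 with marker ECs, and the EAE one (0.248) -0.337 with marker ECs. Log2 differences that changed sign were small ones. With marker ECs these were Gkn3 at P10 (0.25), aged Gja4 (0.18), Gja5 (0.053) and Efnb2 (0.11), and EAE Ephb4 (0.55) and Nr2f2 (-0.30). EAE Bmx was -0.036 with 11 separate libraries, and EAE Ephb4 was 0.0074 without Juvenile 3 and 4. With a library left out the ranges were -0.16 to 0.24 for aged Bmx, -0.23 to 0.42 for aged Gkn3, -0.46 to 0.11 for aged Gja4, -0.20 to 0.11 for EAE Bmx and -0.13 to 0.034 for EAE Ephb4.

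Same-numbered libraries did not deviate together (r from -0.239 to 0.229 over 13 pairs, 1 of 10 libraries closest to its own number). A replicate block gave 5, 0 and 2 members called at P10, in aged and in EAE ECs, with aged Bmx at -0.010, EAE Bmx at -0.047 and EAE Nr2f2 at -0.026.

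Over all genes, 642 aged calls became 1378 with 11 separate libraries, 1484 with marker ECs, 1415 without a filter, 1273 with the replicate block and 70 to 1017 with a library left out. EAE calls (3668) became 6266 with marker ECs and 1479 to 3723 with a library left out, and P10 calls (5724) 3803 without Juvenile 3 and 4. Arterial-side P10 calls (1269) became 1940 with 20% and 824 with 5% ranges and 642 without Juvenile 3 and 4. Arterial-side aged calls (52) became 83 with 11 libraries, 80 without Juvenile 3 and 4 and 9 to 123 with a library left out, and EAE calls (874) 268 to 988. Venous-side P10 calls (2681) became 1676 with 5% ranges and 1594 without Juvenile 3 and 4, aged calls (240) 393, 128, 412 and 373 (20%, 5%, 11 libraries, without Juvenile 3 and 4) and 55 to 433, and EAE calls (1614) 1016 with 5% ranges and 826 to 1691. Interaction calls became 62 in aged ECs without Juvenile 3 and 4 (39), 18 to 82 with a library left out, and 164 to 429 in EAE (302).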
